A study of Mus musculus with 18 samples.

Results

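Glutathione S-transferases were followed through the liver transcriptomes of mice made diabetic with streptozotocin (STZ). The 10 genes Gsta2, Gsta3, Gsta4, Gstm1, Gstm2, Gstm3, Gstp1, Gstt1, Gstt3 and Gstz1 were taken by symbol from a table of 19057 gene symbols, and all 10 passed the filter on low values. The study was about gut microbiota transfer and male fertility in STZ diabetes, and the liver was among the tissues it sequenced. Livers of male ICR mice, an outbred stock, were taken at 10 weeks of age, with 3 libraries in each of 6 groups. Con mice received regular diet and saline. STZ mice received a single injection of STZ, a toxin that destroys the insulin-producing beta cells of the pancreas. A10-FMT mice received STZ and then small intestinal contents of donors dosed with alginate oligosaccharide (AOS) at 10 mg/kg. Con-FMT mice received STZ and then contents of control donors dosed with water. The contents of the donors of a group were pooled, so all recipients of a group shared the same donor material. AOS and STZ+AOS mice are described only by their labels, as AOS at 10 mg/kg alone and together with STZ. The labels number the libraries 1 to 3 in each group without stating that each came from a separate mouse. Each library is called a mouse here, and p-values measure only the spread between these samples.

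Glutathione S-transferases join the tripeptide glutathione to electrophilic drugs, carcinogens and products of lipid peroxidation, which makes them more soluble and ready for export into bile or blood. The cytosolic enzymes are grouped into classes named alpha, mu, pi, theta, zeta, omega and others, and members of a class are often encoded side by side. Hepatocytes are rich in them, and many are induced through the transcription factor NRF2, which binds the antioxidant response element, and through the xenobiotic receptors CAR and PXR.

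The 10 genes lie at 6 places in the mouse genome (GRCm38). Gsta2 (78331018 to 78355788, minus strand) and Gsta4 (78182774 to 78209349, plus strand) lie on chromosome 9, and Gsta3 (21240589 to 21265661, plus strand) on chromosome 1. Gstm1 (108012255 to 108017973), Gstm2 (107981702 to 107986453) and Gstm3 (107963696 to 107969283) lie side by side on the minus strand of chromosome 3. Gstt1 (75783813 to 75798584) and Gstt3 (75774115 to 75781414) are neighbours on the minus strand of chromosome 10. Gstp1 (4035407 to 4037985, minus strand) lies on chromosome 19 and Gstz1 (87147165 to 87164723, plus strand) on chromosome 12. Members of a cluster resemble each other in sequence, and their reads may not have been kept apart. Of the 50-base windows of the transcripts, 51.0% of Gstp1 occurred unchanged in another gene, all of them in Gstp2. That share was 47.4% for Gsta2 (32.9% in Gsta1), 28.8% for Gstm3, 20.6% for Gstt3, 19.9% for Gstm1 and 8.30% for Gstm2, and 0 for Gsta3, Gsta4, Gstt1 and Gstz1.

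The promoters of 4 members are shown because they belong to the genes with the largest rises (Gsta2 and Gstt3), to the single gene that fell (Gstp1) and to the single member with a match to the antioxidant response element core. They are the 250 bases before the RefSeq gene start in GRCm38.p6, written 5′ to 3′ on the gene's strand, and capitals mark a match to TGACNNNGC, searched on both strands. Gsta2 is at chr9:78347146-78347395 (minus strand), Gstt3 at chr10:75781423-75781672 (minus strand, the first of 2 starts), Gstp1 at chr19:4037913-4038162 (minus strand) and Gsta3 at chr1:21240335-21240584 (plus strand).
Gsta2: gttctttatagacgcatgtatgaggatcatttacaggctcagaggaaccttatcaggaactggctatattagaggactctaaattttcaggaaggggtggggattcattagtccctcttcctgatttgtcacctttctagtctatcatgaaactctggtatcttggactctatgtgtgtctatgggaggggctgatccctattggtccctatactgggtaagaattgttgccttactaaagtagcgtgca
Gstt3: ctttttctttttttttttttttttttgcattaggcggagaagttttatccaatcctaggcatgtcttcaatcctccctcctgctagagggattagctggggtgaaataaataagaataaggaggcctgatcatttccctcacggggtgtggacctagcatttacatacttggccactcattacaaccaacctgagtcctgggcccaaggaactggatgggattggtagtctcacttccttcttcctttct
Gstp1: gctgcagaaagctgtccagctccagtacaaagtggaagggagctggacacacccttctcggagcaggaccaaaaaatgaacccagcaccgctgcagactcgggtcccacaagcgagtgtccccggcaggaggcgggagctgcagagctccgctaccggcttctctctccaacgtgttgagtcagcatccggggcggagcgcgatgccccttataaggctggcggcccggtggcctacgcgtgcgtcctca
Gsta3: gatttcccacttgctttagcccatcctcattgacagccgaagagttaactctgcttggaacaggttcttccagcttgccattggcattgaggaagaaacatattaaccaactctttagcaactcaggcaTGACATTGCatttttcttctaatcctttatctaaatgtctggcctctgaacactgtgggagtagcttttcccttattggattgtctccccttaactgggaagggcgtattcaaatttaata
RefSeq promoters were matched for 9 of the 10 members, with 12 promoters in all, and Gsta4 had none. The match in Gsta3 reads TGACATTGC and begins 121 bases before the start. No other of the 12 promoters held these letters in this window. The motif was present in 10.16% of 32851 promoters of the same length, so 1 in 12 is close to that share.

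In control livers the 10 genes spanned a wide range of levels. Gstp1 was the most abundant, with 7549 ± 225 RPKM (mean ± SD, n = 3; RPKM is a read count scaled to transcript length and library size), and ranked 19 among all genes of the table. Gstm1 (1428 ± 178 RPKM), Gsta3 (820.2 ± 91.9 RPKM) and Gstz1 (391 ± 51.3 RPKM) followed. Gstt1 had 199.7 ± 22.5 RPKM. Gstm3, Gstm2 and Gsta4 lay close together, at 93.2 ± 10.0, 85.5 ± 1.39 and 84.9 ± 22.1 RPKM. Gsta2 (30.2 ± 14.6 RPKM) and Gstt3 (24.5 ± 1.30 RPKM) were the lowest, and Gstp1 stood 308 times above Gstt3 per length. The lowest value of any member in any of the 18 libraries was 16.2 RPKM.

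Summed over all genes, a library held 621121 to 806937 RPKM, and the sums of Con (749557 to 806937) did not overlap those of STZ (631126 to 684659). Between 9955 and 10409 genes reached 1 RPKM. Differences are therefore given on the deposited scale, and calls also after median-ratio scaling, in which a single factor per library brings most genes to a common level. In STZ against Con this scaling moved the median log2 difference of all genes from 0.21 to -0.0070, and the calls from 3502 higher and 585 lower to 1488 higher and 1405 lower. The labelled tissue matched its markers. The 7 hepatocyte markers in the table summed to 44861 to 74246 RPKM in the 18 libraries, and the 8 lymphocyte markers to 0.87 to 4.08 RPKM. In bulk liver, fewer cells of a type and less RNA per cell cannot be told apart.

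**Figure D1:**
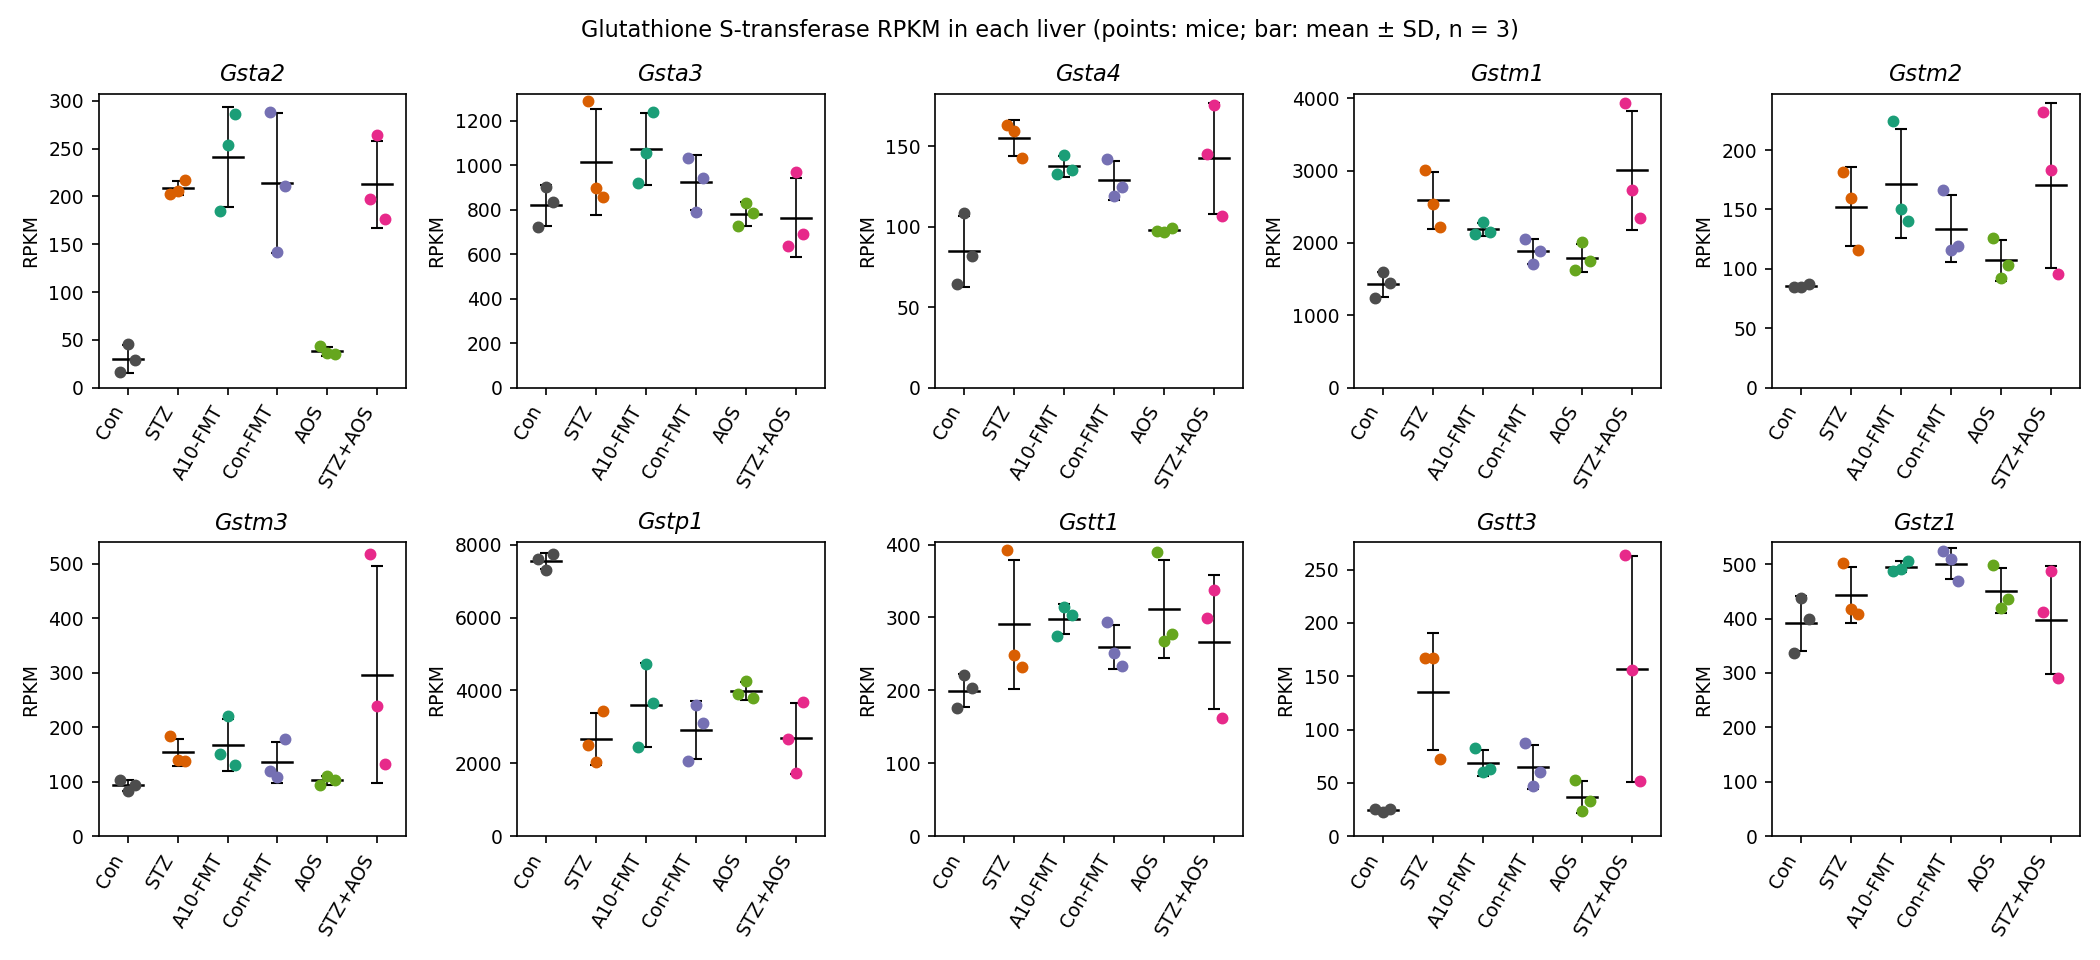
RPKM of the 10 genes in each of the 18 livers, by group (points are mice, long bars are means and whiskers are SD, n = 3), with every vertical axis starting at 0. Gstp1 was at 7303 to 7745 RPKM in Con and at 4730.0 RPKM or less in every other library, whereas Gsta2 was at 45.3 RPKM or less in Con and AOS and at 142 RPKM or more in the 4 groups given STZ.

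STZ changed the glutathione S-transferases in both directions. Compared with Con, 6 of the 10 genes rose (Gsta2, Gsta4, Gstm1, Gstm2, Gstm3 and Gstt3), Gstp1 fell, and Gsta3, Gstt1 and Gstz1 did not pass the test. Gsta2 rose 6.90-fold and Gstt3 5.53-fold in mean RPKM, the other 4 rises were 1.65-fold to 1.83-fold, and Gstp1 was 2.83-fold lower. The 7 of 10 called compare with 38.5% of all 10602 genes called in this contrast (33% higher and 5.52% lower). The groups did not overlap in 8 of the 10 genes, against 47.7% of all genes. The median log2 difference of the 10 genes was 0.76, beside 0.21 for all genes. After median-ratio scaling 5 calls were left (Gsta2, Gsta4, Gstm1 and Gstt3 higher, Gstp1 lower), beside 27.3% of all genes. Without each mouse in turn 6 of the 7 calls held, and Gstm3 lost its call.

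Among the alpha-class genes, Gsta2 separated the groups with and without STZ. Its enzyme conjugates electrophiles and reduces lipid hydroperoxides. The 3 Con livers had 16.2, 45.3 and 29.2 RPKM and the AOS livers 43.4, 35.8 and 35.2 RPKM. The STZ livers had 203, 206 and 217 RPKM, and the STZ+AOS livers 197, 264 and 176 RPKM. The A10-FMT livers had 184, 254 and 287 RPKM, and the Con-FMT livers 288, 142 and 211 RPKM. The 12 livers of mice given STZ all lay above the 6 others. STZ against Con gave a log2 difference of 2.86 (SE 0.33, adjusted p 0.000394). In the order of group means, A10-FMT, Con-FMT, STZ+AOS and STZ overlapped their neighbours, a gap separated STZ from AOS, and AOS overlapped Con.

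Gsta3, the abundant alpha-class enzyme of mouse liver known for detoxifying the aflatoxin epoxide, differed little. Con livers had 722, 904 and 834 RPKM and STZ livers 1288, 899.5 and 859 RPKM. These ranges overlapped, and the log2 difference was 0.29 (95% interval -0.13 to 0.71, adjusted p 0.247). Over the 18 libraries Gsta3 ran from 635 to 1288 RPKM, and every group overlapped its neighbour in the order of means.

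Gsta4, whose enzyme is specialised on 4-hydroxynonenal and related products of lipid peroxidation, was higher in STZ. Con livers had 64.5, 108 and 81.7 RPKM and STZ livers 163, 159.6 and 142 RPKM, without overlap. The log2 difference was 0.89 (SE 0.16, adjusted p 0.00232). The AOS livers were nearly alike, at 97.3, 96.9 and 99.0 RPKM. The 4 groups given STZ stood first in the order of means, and the last of them, Con-FMT (129 ± 11.9 RPKM), did not overlap AOS.

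The mu-class genes Gstm1, Gstm2 and Gstm3, which encode enzymes active on epoxides, quinones and other aromatic electrophiles, were all higher in STZ than in Con. Gstm1, the main mu-class gene of mouse liver, had 1243, 1599 and 1440.5 RPKM in Con and 3008, 2540.4 and 2215 RPKM in STZ. The log2 difference was 0.85 (SE 0.17, adjusted p 0.00325). The highest value of Gstm1 was found in mouse 1 of STZ+AOS, at 3932 RPKM, and the other 2 mice of that group had 2737 and 2345 RPKM. In the order of means STZ+AOS and STZ overlapped, as did STZ and A10-FMT. The 3 A10-FMT livers lay above those of Con-FMT, and the AOS livers (1626, 2008 and 1756 RPKM) above those of Con.

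Gstm2 was nearly constant in Con, at 84.6, 84.7 and 87.1 RPKM, and stood at 182, 159 and 116 RPKM in STZ. The groups did not overlap, with a log2 difference of 0.80 (SE 0.21, adjusted p 0.0129). After median-ratio scaling the difference was 0.54 and the adjusted p 0.0519, so the call depended on the scale. Con was lower in Gstm2 than every other library.

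Gstm3 had 103, 83.2 and 93.1 RPKM in Con and 183, 140.0 and 138 RPKM in STZ. The log2 difference was 0.71 (SE 0.22, adjusted p 0.0273). This was the only call of the 7 that was lost when a mouse was left out. The adjusted p was 0.181 after scaling, 0.121 with all 6 groups in the model, and 0.0511 to 0.0921 without Con mouse 2, Con mouse 3, STZ mouse 1 or STZ mouse 2. Gstm3 was uneven in STZ+AOS, where the 3 mice had 519, 239.8 and 132 RPKM.

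Gstp1, the pi-class gene, which is known to be more abundant in male than in female mouse liver, was the only member that fell. The Con livers had 7599.7, 7303 and 7745 RPKM and the STZ livers 2498, 2048 and 3448 RPKM. All 15 other libraries lay below the lowest Con library. STZ against Con gave a log2 difference of -1.54 (SE 0.29, adjusted p 0.0030), and -1.80 after median-ratio scaling. The call held without each mouse in turn, with differences of -1.74 to -1.36. The AOS group was close to uniform, at 3914, 4262 and 3798 RPKM, while A10-FMT had 2439.9, 4730.0 and 3649 RPKM. In the order of means Con did not overlap AOS, and all later neighbours (A10-FMT, Con-FMT, STZ+AOS and STZ) overlapped. Because Gstp1 shares 51.0% of its windows with Gstp2, part of its reads could belong to that gene, whose own values were 6.23 to 55.0 RPKM.

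The theta-class neighbours Gstt1 and Gstt3 did not move by the same amount. The enzyme of Gstt1 acts on small halogenated compounds. Gstt1 had 176, 221 and 203 RPKM in Con and 392, 248 and 232 RPKM in STZ, without overlap. Its log2 difference was 0.50 (95% interval 0.09 to 0.91), and the adjusted p of 0.0516 narrowly missed the threshold. Without STZ mouse 3 the difference was 0.65 and the adjusted p 0.0159. AOS had the highest group mean of Gstt1, 311 ± 67.7 RPKM, and the Con livers lay below all livers of the other groups except 1 STZ+AOS liver at 163 RPKM.

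Gstt3 had 25.4, 23.0 and 25.2 RPKM in Con and 167, 167 and 72.7 RPKM in STZ. The groups did not overlap, with a log2 difference of 2.32 (SE 0.30, adjusted p 0.000564). STZ mouse 3 had less than the other 2 STZ mice, and STZ+AOS was more uneven, at 264, 155 and 51.4 RPKM. The A10-FMT livers (82.8, 59.98 and 62.8 RPKM) and the Con-FMT livers (87.5, 47.4 and 60.1 RPKM) lay between Con and the 2 higher STZ mice. All groups overlapped their neighbours in the order of means, which ran from STZ+AOS (157 ± 106 RPKM) to Con (24.5 ± 1.30 RPKM).

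Gstz1, the zeta-class gene, encodes maleylacetoacetate isomerase, an enzyme of tyrosine catabolism that also breaks down dichloroacetate. It had 336, 437 and 399.6 RPKM in Con and 502, 418 and 409 RPKM in STZ. The ranges overlapped, with a log2 difference of 0.18 (95% interval -0.11 to 0.47, adjusted p 0.288), and -0.09 after median-ratio scaling. Gstz1 was the least variable member over the 18 libraries, with the highest value 1.80 times the lowest.

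**Figure D2:**
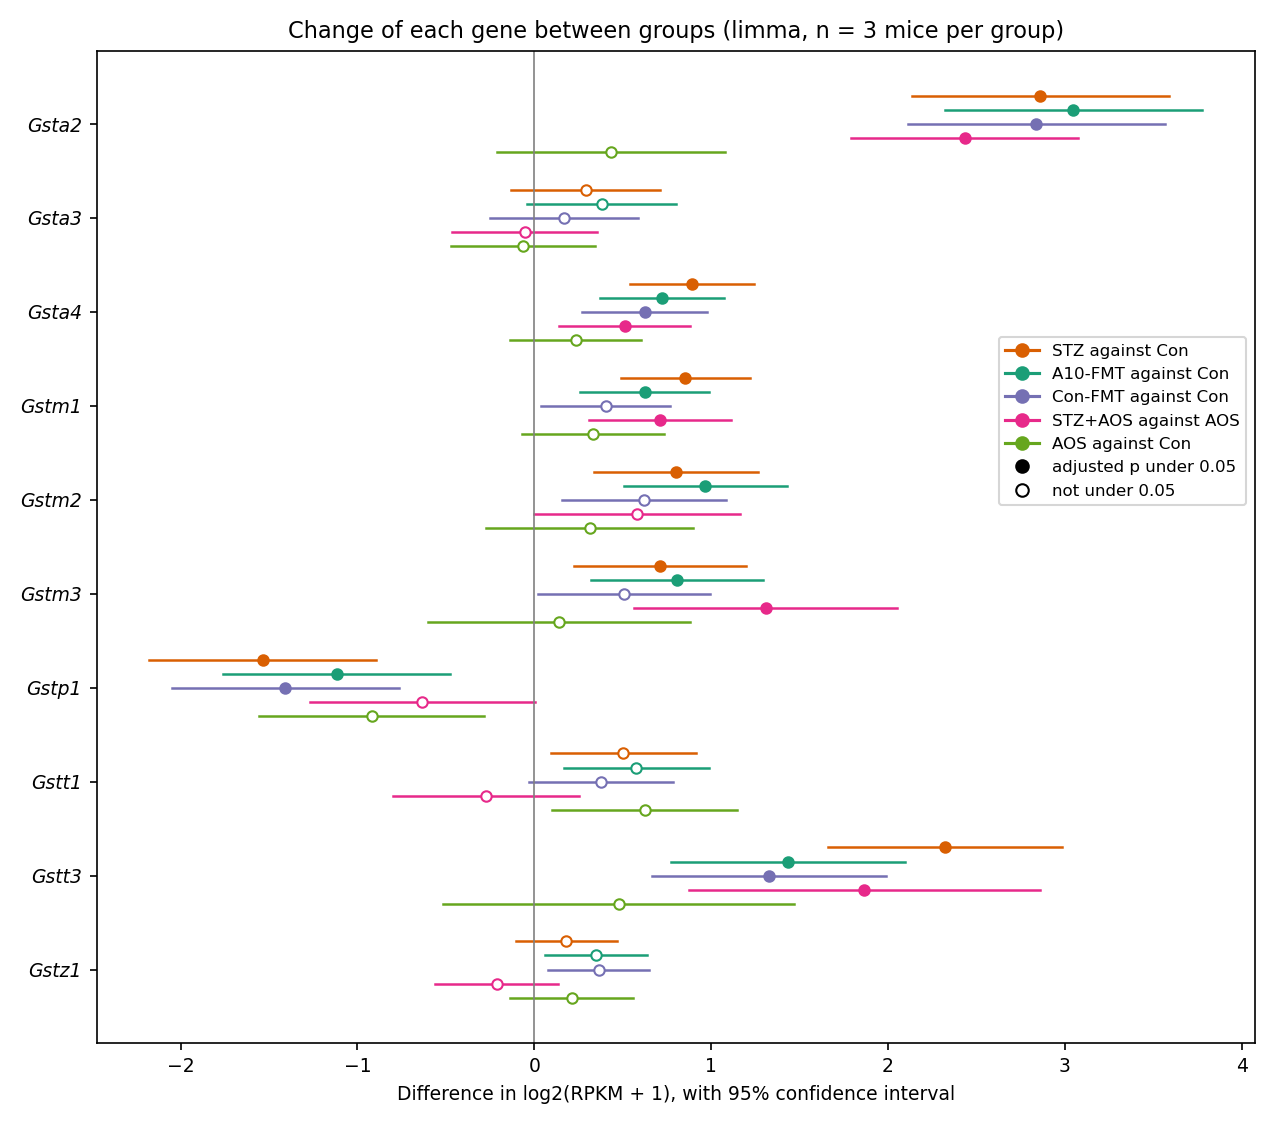
Differences in log2(RPKM + 1) of the 10 genes in 5 comparisons from limma (3 mice per group), with 95% confidence intervals, filled where the adjusted p was under 0.05. Gsta2 and Gstt3 lay farthest to the right in the 4 comparisons of an STZ group, Gstp1 was the single gene left of 0 in all 5, and no point of AOS against Con was filled.

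No glutathione S-transferase was called against STZ in either transplanted group, where few genes of the whole table were called. In A10-FMT against STZ 0 of the 10 genes were called by limma, and 1 had an unadjusted p under 0.05 (Gstt3). Of all genes, 0.226% were called (0.066% higher and 0.16% lower). In Con-FMT against STZ 0 were called and 2 had an unadjusted p under 0.05 (Gstm1 and Gstt3), where 0.00943% of all genes were called. The groups did not overlap in 0 of the 10 genes in A10-FMT against STZ (21.5% of all genes) and in 2 of the 10 in Con-FMT against STZ, Gsta4 and Gstm1 (17.7% of all genes). These comparisons share the STZ libraries.

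Gstt3 had the largest difference in both. It was -0.89 for A10-FMT (95% interval -1.55 to -0.23, adjusted p 0.144). For Con-FMT it was -0.997 (-1.66 to -0.34, adjusted p 0.119). STZ mouse 3 decided these values. Without it, Gstt3 was called lower than in STZ, by -1.29 for A10-FMT (adjusted p 0.00568) and by -1.39 for Con-FMT (adjusted p 0.00355). Gstm1 was then also called lower in Con-FMT (-0.56, adjusted p 0.0373), where it was -0.45 (adjusted p 0.173) with all mice. Without this mouse the calls over all genes rose from 24 to 1343 in A10-FMT against STZ and from 1 to 1636 in Con-FMT against STZ. The intervals of the other genes bound what the test could have missed. For Gstp1 they ran from -0.22 to 1.06 in A10-FMT and from -0.51 to 0.77 in Con-FMT, and for Gsta2 from -0.54 to 0.92 and from -0.75 to 0.71.

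Several of these genes also differed between the transplanted groups and Con. In A10-FMT 7 of the 10 genes were called, with Gsta2, Gsta4, Gstm1, Gstm2, Gstm3 and Gstt3 higher and Gstp1 lower, beside 18.4% of all genes. In Con-FMT 4 were called, with Gsta2, Gsta4 and Gstt3 higher and Gstp1 lower, beside 19.4% of all genes. The groups did not overlap in 10 and 9 of the 10 genes, against 48.9% and 45.9% of all genes. Both comparisons and STZ against Con share the Con libraries, so their values are given side by side only.

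Gsta2 was 3.05 higher on the log2 scale in A10-FMT (adjusted p 0.000614) and 2.84 in Con-FMT (adjusted p 0.00113). Gstp1 was -1.12 (adjusted p 0.0257) and -1.41 (adjusted p 0.0114). Gstt3 was 1.43 (adjusted p 0.0117) and 1.33 (adjusted p 0.0154), and Gsta4 0.72 (adjusted p 0.0135) and 0.62 (adjusted p 0.0236). These 4 genes were called in both on the deposited scale. After median-ratio scaling 5 calls were left in A10-FMT, beside 11% of all genes, without Gstm1 (0.42, adjusted p 0.0713) and Gstm3 (0.60, adjusted p 0.127). In Con-FMT 3 were left, beside 8.24% of all genes, without Gsta4 (0.40, adjusted p 0.0851). The mu-class genes had smaller values in Con-FMT (0.40 for Gstm1, 0.62 for Gstm2 and 0.51 for Gstm3, adjusted p 0.0595 to 0.123) than in A10-FMT (0.62, 0.97 and 0.80). In A10-FMT against Con-FMT, however, 0 of the 10 genes were called by limma and 0 had an unadjusted p under 0.05. The log2 differences were -0.02 to 0.35, each with an adjusted p of 0.999. No gene of the table was called there (0%), and the mice did not overlap in 1 of the 10 genes, Gstm1, and in 8.92% of all genes.

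Many calls against Con did not hold when 1 mouse was left out. The share of all genes called in these refits is not given, so the losses are not read as particular to these genes. Leaving out 1 mouse left 2 to 5 of the 7 calls in A10-FMT against Con, and only Gsta2 and Gstt3 were called without each mouse. The count was 2 without Con mouse 1, 3 without Con mouse 3 and 4 without A10-FMT mouse 1. In Con-FMT against Con 2 to 4 calls were left, and 2 without Con mouse 1 or without Con-FMT mouse 1. Gsta2 and Gstp1 were called without each mouse there.

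AOS alone gave 0 calls among the 10 genes by limma, and 2 had an unadjusted p under 0.05 (Gstp1 and Gstt1). Of 10822 genes tested in this model, 0.00924% were called. The AOS and Con livers did not overlap in 4 of the 10 genes (Gstm1, Gstm2, Gstp1 and Gstt1), against 24.4% of all genes. Gstp1 had the largest difference, -0.92 (95% interval -1.56 to -0.29, adjusted p 0.574), a 1.89-fold lower mean, and Gstt1 followed with 0.62 (0.10 to 1.15, adjusted p 0.647). A model of AOS and Con alone, in which the spread came from 6 libraries, called Gstp1 (adjusted p 0.0339). The share of all genes called in that model is not given here.

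Adding AOS to STZ gave 0 calls among the 10 genes by limma and 0 at an unadjusted p under 0.05, with 0% of all genes called. The mice overlapped in all 10 genes (5.13% of all genes did not). The log2 differences ran from -0.41 for Gsta3 (95% interval -0.82 to 0.00) to 0.74 for Gstm3 (-0.01 to 1.48). Gsta2 and Gstp1 stood at 0.01 (-0.64 to 0.65) and -0.02 (-0.65 to 0.62). The AOS effect with STZ minus the AOS effect without it was 0.90 for Gstp1 (0.00 to 1.80, adjusted p 0.856) and -0.78 for Gstt1 (-1.52 to -0.03, adjusted p 0.856). By limma 0 of the 10 differences were called, 2 had an unadjusted p under 0.05, and 0% of all genes were called.

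STZ+AOS against AOS is a second comparison with and without STZ, and its group means use none of the libraries of STZ against Con. The spread, however, came from all 18 libraries, those of Con and STZ included. This comparison gave 5 calls of 10, all higher (Gsta2, Gsta4, Gstm1, Gstm3 and Gstt3), beside 37.9% of all genes called (31.8% higher and 6.11% lower). The mice did not overlap in 5 genes, against 49.1% of all genes. Gsta2 was 2.43 higher on the log2 scale (adjusted p 0.000107), Gstt3 1.87 (adjusted p 0.00675), Gstm3 1.31 (adjusted p 0.00952), Gstm1 0.71 (adjusted p 0.00926) and Gsta4 0.51 (adjusted p 0.0318). The values of Gstt3 in STZ+AOS overlapped those of AOS (52.8, 23.4 and 33.1 RPKM), since STZ+AOS mouse 3 lay below AOS mouse 1. Gstp1 was -0.63 (95% interval -1.27 to 0.00, adjusted p 0.105), and its STZ+AOS livers (2667, 1732 and 3674 RPKM) all lay below those of AOS. Without STZ+AOS mouse 3 it was -0.89 (adjusted p 0.0397) and Gstm2 was 0.95 (adjusted p 0.00740), which made 7 calls. Gsta4 lost its call without any 1 of 5 of the 6 mice (adjusted p 0.0691 to 0.134). After median-ratio scaling Gsta2, Gstm3 and Gstt3 stayed higher, Gsta4 and Gstm1 lost their calls, and Gstz1 was called lower (-0.46, adjusted p 0.0358). On that scale 24.5% of all genes were called. A model of these 2 groups alone, with its spread from 6 libraries, called only Gsta2. The calls over all genes are not given for this model or without STZ+AOS mouse 3, so these counts have no background.

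The make-up of the family differed between Con and the other groups. The 10 genes summed to 10706 ± 297 RPKM in Con and 7806 ± 800 RPKM in STZ, and Gstp1 made up 70.6% ± 2.86 and 34.1% ± 8.5 of this sum. The share of Gstm1 was 13.3% ± 1.41 in Con and 33.2% ± 4.36 in STZ, and that of Gsta3 7.65% ± 0.70 and 12.9% ± 2.03. Gsta2 had 0.28% ± 0.13 and 2.69% ± 0.30. Without Gstp1 the sum went the other way, with 3157 ± 369 RPKM in Con and 5142 ± 861 RPKM in STZ. The other groups were all below Con in the full sum, at 8449 ± 1352 RPKM in A10-FMT, 7168 ± 358 in Con-FMT, 7715 ± 382 in AOS and 8103 ± 1062 in STZ+AOS. In AOS, Gstp1 made up 51.7% ± 0.59 of the sum. As a part of all RPKM of a library, the sum was 1.39% ± 0.09 in Con, 1.19% ± 0.11 in STZ and 1.04% ± 0.03 in Con-FMT. It was 1.22% ± 0.17 in A10-FMT, 1.05% ± 0.04 in AOS and 1.28% ± 0.16 in STZ+AOS. On this scale STZ and A10-FMT overlapped Con (1.29% to 1.44%), and STZ+AOS mouse 1 (1.45%) lay above all Con libraries. These sums are descriptions and were not tested.

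**Figure D3:**
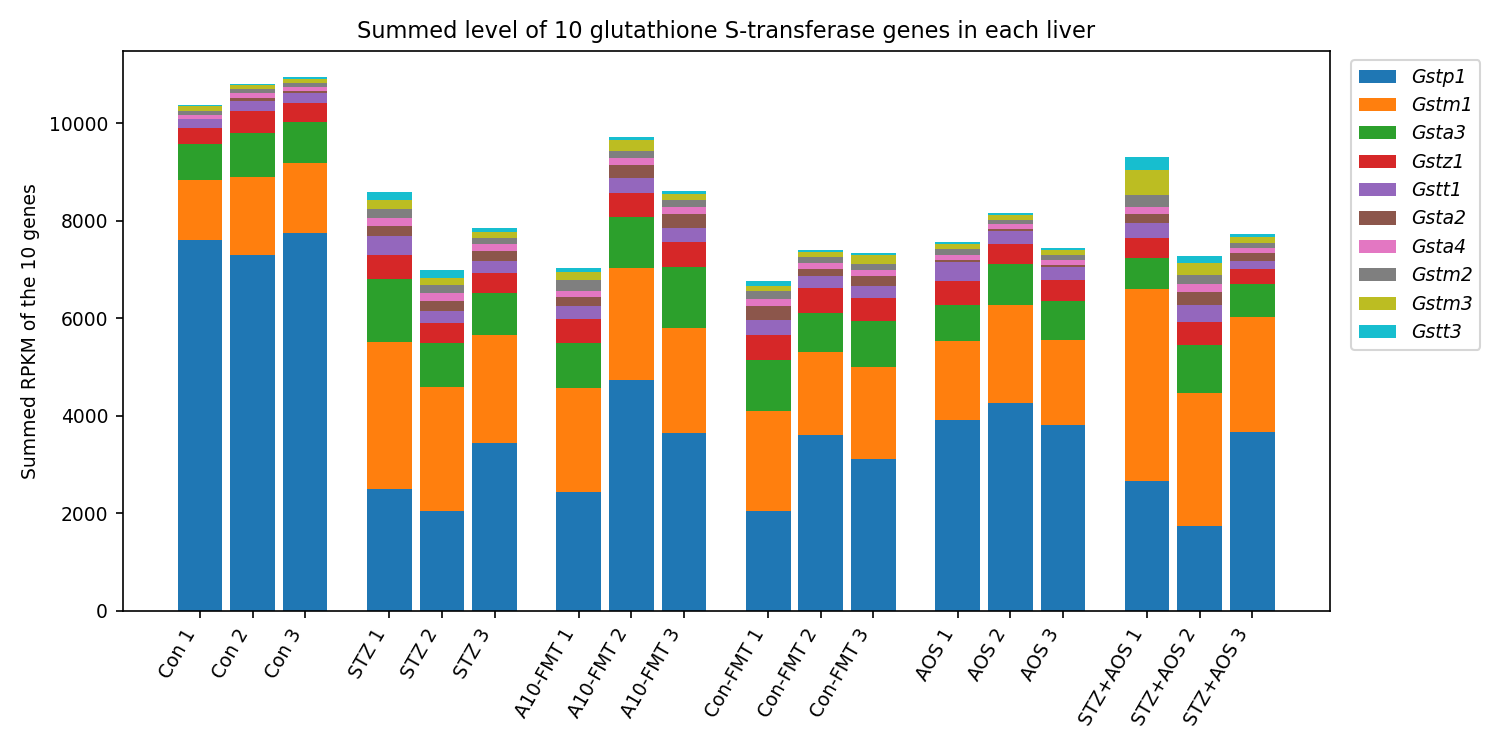
Summed RPKM of the 10 genes in each of the 18 livers, stacked by gene from a baseline of 0. The 3 Con livers reached 10371 to 10938 RPKM, mostly Gstp1 (blue), and the other 15 reached 6756 to 9712 RPKM, with a larger part from Gstm1 (orange).

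The genes also varied between mice of the same group. Pearson's r was taken over the deviations of the 18 livers from their group means, which share library and scale, and is given without a test. Gstm2 and Gstt3 moved together most closely (r = 0.94), followed by Gstt1 and Gstz1 (0.93) and Gsta4 and Gstz1 (0.85). Gstp1 was negative with all 9 other genes, from -0.06 with Gstm3 to -0.73 with Gstm2. Within the mu class r was 0.57 to 0.72, and within the alpha class 0.59 to 0.78. Gstt1 and Gstt3, which are neighbours, had r = 0.75. The median coefficient of variation within a group was largest for Gstt3 (35.9%) and Gstp1 (27.0%) and smallest for Gsta4 (8.20%). In 8 of the 10 genes STZ+AOS was the most variable group, and in Gsta2 and Gsta4 it was Con.

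**Figure D4:**
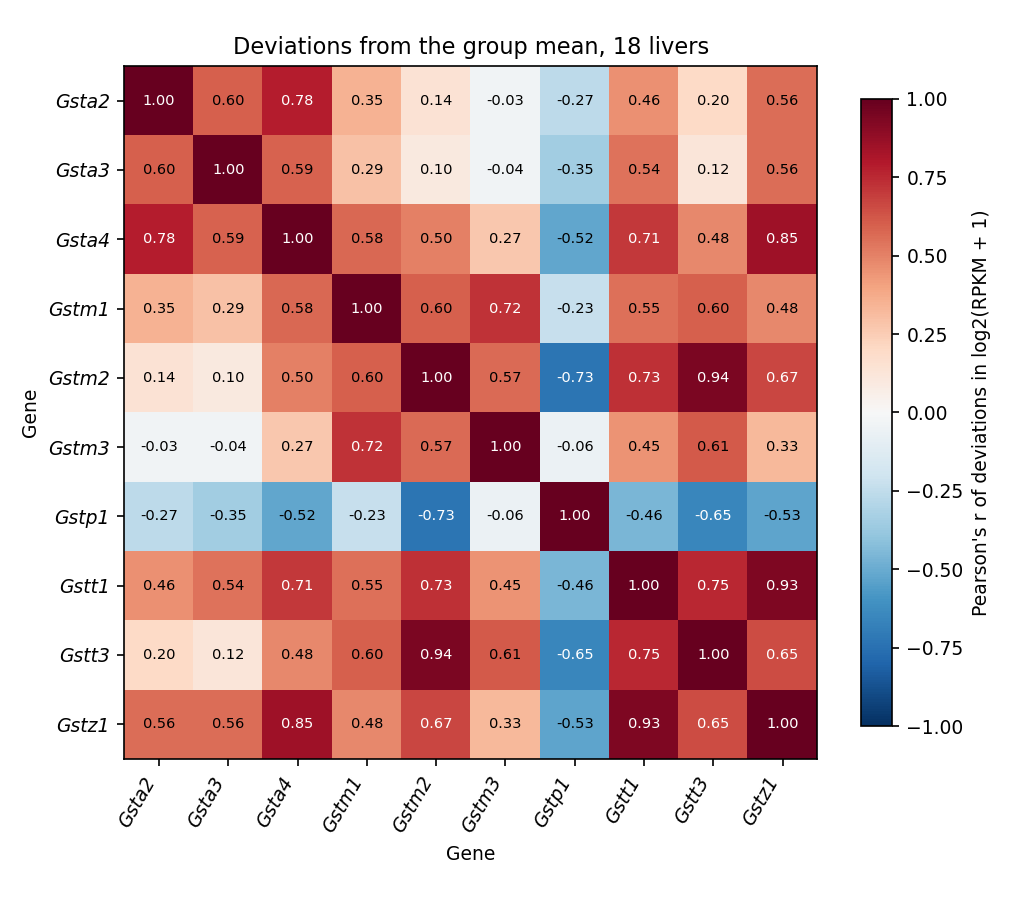
Pearson's r between genes over the deviations of 18 livers from their group means in log2(RPKM + 1), red for positive and blue for negative. The row of Gstp1 was blue throughout, down to -0.73, and Gstm2 with Gstt3 (0.94) was the highest value off the diagonal.

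The rest of the family and related genes were read from a list of 23, of which 16 passed the filter in STZ against Con. 6 rose and 1 fell, with a median log2 difference of 0.36 beside 0.21 for all genes. These shares are near those of all genes, 33% higher and 5.52% lower. After median-ratio scaling 4 were higher and 2 lower, and without STZ mouse 3 the counts were 8 and 3. Gsto1, the omega-class dehydroascorbate reductase, rose from 92.7 ± 4.26 to 205 ± 12.2 RPKM (log2 difference 1.14, adjusted p 0.000564), and Gstt2, another theta gene, from 26.4 ± 4.42 to 83.4 ± 36.6 RPKM (1.55, adjusted p 0.00184). Mgst3, a microsomal enzyme, rose from 28.2 ± 9.39 to 93.7 ± 50.5 RPKM (1.60, adjusted p 0.00757), and Gsta1, which shares sequence with Gsta2, from 2.59 ± 0.05 to 9.63 ± 3.22 RPKM (1.53, adjusted p 0.00904). Of the 50-base windows of Gsta1, 89.7% occurred in another gene (44.6% in Gsta2), so part of its reads could belong to such a gene. Gstk1 (0.57) and Gstm4 (0.54) were called on the deposited scale, but not after scaling. Both calls were also lost without Con mouse 1, Con mouse 3 or STZ mouse 1, that of Gstk1 without STZ mouse 2 and that of Gstm4 without STZ mouse 3 (adjusted p 0.0685 to 0.128). Gstm6 was the mu-class gene that fell, from 69.7 ± 9.68 to 38.6 ± 10.1 RPKM (-0.86, adjusted p 0.00341).

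Gstm6 stood at 74.2, 75.6 and 67.1 RPKM in A10-FMT, above the 3 STZ livers (39.7, 28.0 and 48.1 RPKM), and the log2 difference of 0.92 had an adjusted p of 0.0548. The Con-FMT livers, at 54.5, 60.6 and 59.8 RPKM, lay above the STZ livers as well (0.61, adjusted p 0.104). In STZ+AOS against AOS it was again lower (-1.30, adjusted p 0.000147). Mgst1, the abundant microsomal transferase, had 3213 ± 140.1 RPKM in Con and 2566 ± 580.1 RPKM in STZ, with an adjusted p of 0.150 on the deposited scale and 0.0339 after scaling. The pi-class neighbours of Gstp1 were erratic. Gstp3 ran from 19.3 to 1054 RPKM over the 18 libraries, with a median coefficient of variation within groups of 80.5%. Its log2 difference in STZ against Con was 2.48 (95% interval -0.31 to 5.27), and that of Gstp2 was -1.16 (-2.47 to 0.16).

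Of 12 genes tested that make glutathione or handle the sulfur amino acids around it, 9 rose and 1 fell (7 and 1 after scaling), where 33% of all genes were higher and 5.52% lower. Their median was 0.69. Mat1a, which makes S-adenosylmethionine, rose from 423 ± 24.5 to 2711 ± 890.3 RPKM (log2 difference 2.63), and Cth, which makes cysteine, from 171 ± 30.2 to 508 ± 102 RPKM (1.56). Gnmt (1.33) and Ahcy (1.10), both of the methionine cycle, rose too. Slc3a1, a subunit of a cystine carrier, fell (-1.28, adjusted p 0.0208). This call was lost without Con mouse 1, Con mouse 3 or STZ mouse 1 (adjusted p 0.0591 to 0.0832). The catalytic subunit of the rate-limiting enzyme, Gclc, did not pass the test, at 74.9 ± 13.2 and 76.3 ± 25.8 RPKM (-0.01, adjusted p 0.976). Its modifier subunit Gclm was called at 0.39 (adjusted p 0.0167) and lost the call after scaling (0.13, adjusted p 0.308) and without Con mouse 1, Con mouse 3 or STZ mouse 2 (adjusted p 0.0606 to 0.0669).

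Genes of glutathione turnover and conjugate export split. Of 16 tested, 6 rose and 3 fell (5 and 4 after scaling), with a median of 0.15 beside 0.21 for all genes. For this list and the recycling list below, the shares of all 10602 genes were 33% higher and 5.52% lower. After scaling, 1488 of all genes were higher and 1405 lower. The conjugate pumps Abcc2 (1.25), Abcc3 (1.74) and Abcc4 (1.88) rose. The uptake carrier Slco1a4 rose from 5.59 ± 2.83 to 117 ± 45.5 RPKM (4.18). Its relative Slco1a1 had 125, 156 and 135 RPKM in Con and 3.53, 0.85 and 117 RPKM in STZ, so STZ mouse 3 stood near Con. It was called lower (-3.80, adjusted p 0.0197). Without STZ mouse 3 the difference was -5.59 (adjusted p 3.84e-06), and without Con mouse 1, Con mouse 3, STZ mouse 1 or STZ mouse 2 the call was lost (adjusted p 0.0517 to 0.0761). Nat8, which finishes mercapturic acids, fell from 22.1 ± 3.96 to 1.19 ± 1.24 RPKM (-3.53). Among 21 genes of glutathione recycling and use, 11 rose and 3 fell (6 and 3 after scaling), with a median of 0.35. Without Con mouse 1 or Con mouse 3 the number higher was 7, and without Con mouse 2 or STZ mouse 2 the number lower was 0. Nnt, a mitochondrial source of NADPH, rose by 1.17, and glutathione reductase Gsr by 0.49 (adjusted p 0.0211). The call of Gsr was lost after scaling (adjusted p 0.199) and without Con mouse 1 or Con mouse 3 (adjusted p 0.0706 and 0.0511).

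Other targets of NRF2 were read from 18 genes. 9 rose and 1 fell (6 and 3 after scaling), with a median of 0.44, where 33% of all genes were higher and 5.52% lower. The quinone reductase Nqo1 rose from 1.38 ± 0.40 to 11.5 ± 3.54 RPKM (log2 difference 2.36) and the carbonyl reductase Cbr1 from 38.3 ± 4.17 to 244 ± 98.9 RPKM (2.56). The epoxide hydrolase Ephx1 (1.2) and sulfiredoxin Srxn1 (1.00) also rose. Of 22 regulators of transferase genes and their marker targets, 17 rose and none fell (11 and 0 after scaling), with a median of 0.73. Nfe2l2, which encodes NRF2, rose from 24.6 ± 1.32 to 42.8 ± 3.54 RPKM (0.77, adjusted p 0.000831), and its repressor Bach1 rose as well (1.19). The receptors CAR (Nr1i3, 1.48) and PXR (Nr1i2, 0.92) rose, and so did the CAR target Cyp2b10 (3.84), the cytochrome P450 reductase Por (3.11) and the NRF2 partner Maff (2.47). In A10-FMT against STZ the only gene of these lists that was called was Stat5b, a mediator of growth hormone signalling. It had 14.6, 19.5 and 16.2 RPKM in STZ and 10.4, 10.4 and 8.91 RPKM in A10-FMT (-0.70, adjusted p 0.0354). The call was lost without STZ mouse 2 or any A10-FMT mouse (adjusted p 0.106 to 0.129). Without STZ mouse 3, where calls over all genes also rose as given above, the 22 regulators had 1 call higher and 7 lower.

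The pathway in which Gstz1 acts was read from 7 genes of tyrosine breakdown. 4 rose and none fell (4 and 1 after scaling), with a median of 1.06, where 33% of all genes were higher and 5.52% lower. Hpd rose from 1058 ± 147 to 2814 ± 521 RPKM (log2 difference 1.40), and Tat (1.27) and Hgd (1.06) rose as well. Fah, whose enzyme takes the product of Gstz1, did not pass the test (0.23, adjusted p 0.189).

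**Figure D5:**
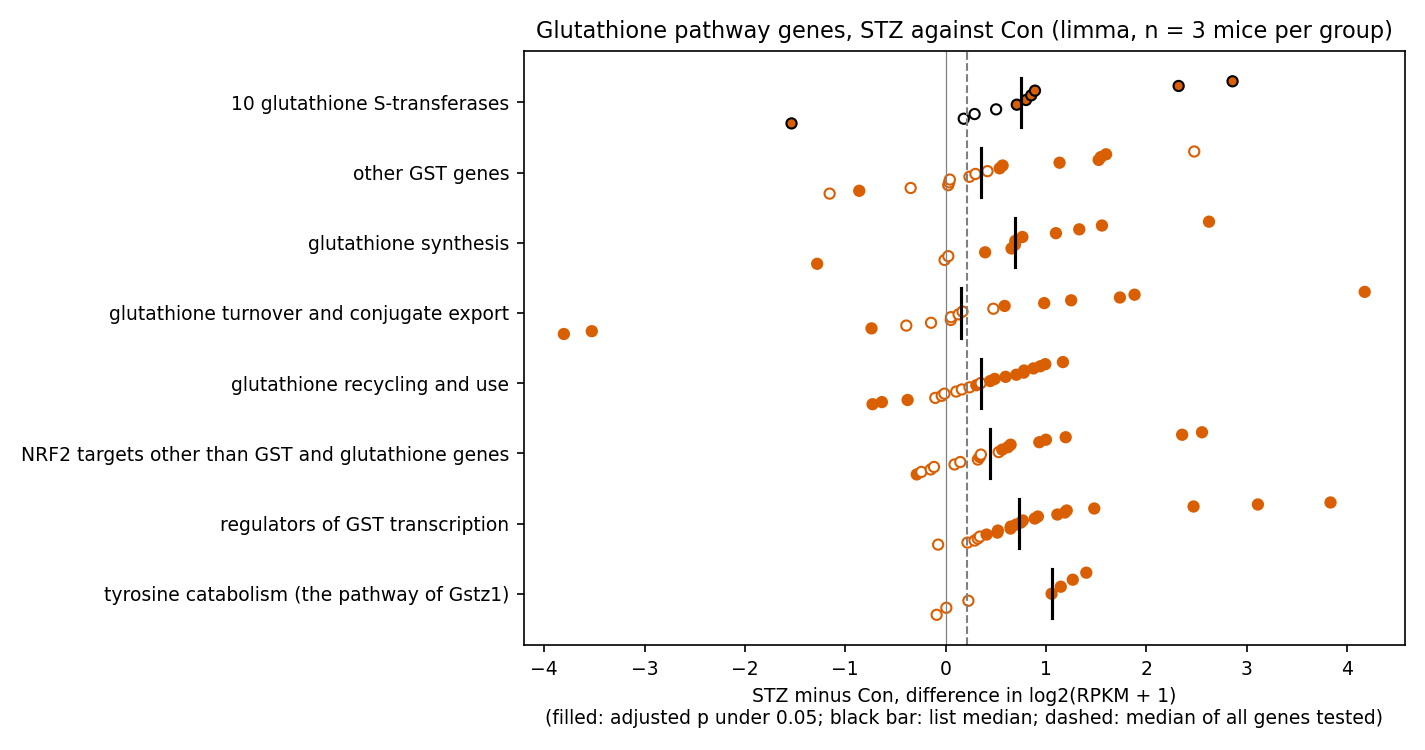
Log2 differences of STZ against Con for the 10 genes and 7 related lists, each point a gene, filled where the adjusted p was under 0.05, with a black bar at the median of the list and a dashed line at the median of all genes (0.21). All 7 lists held filled points right of the dashed line, and the 10 genes had a median of 0.76 with Gstp1 alone left of 0.

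In STZ+AOS against AOS, 3 of 17 other transferase and related genes were higher and 1 lower. Its group means share no library with STZ against Con, but its spread came from all 18 libraries. The counts higher and lower were 7 and 0 of 12 for glutathione synthesis, 7 and 3 of 18 for turnover and export, and 7 and 3 of 22 for recycling and use. They were 12 and 1 of 19 for NRF2 targets, 14 and 0 of 22 for regulators and 4 and 1 of 7 for tyrosine catabolism. Of all genes, 31.8% were higher and 6.11% lower, so the shares of other transferases and of recycling genes were not above those of all genes in the higher direction. In AOS against Con 0 genes of these 7 lists were called.

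Markers of liver cell types were read in the same contrast, in which 33% of all genes were higher and 5.52% lower. The 10 pericentral hepatocyte markers summed to 2498 to 3370 RPKM in Con and 4471 to 6838 RPKM in STZ (6 higher, 0 lower of 10, and 2 higher without Con mouse 1 or 3 without Con mouse 3, STZ mouse 1 or STZ mouse 2), and the 10 periportal ones to 3864 to 5074 and 7716 to 9849 RPKM (8 higher, 2 lower of 10). Of 7 general hepatocyte markers 4 were lower, with sums of 55577 to 74246 RPKM in Con and 44861 to 56146 RPKM in STZ. Kupffer cell markers (2 higher of 10; 125 to 193 and 187 to 369 RPKM), sinusoidal endothelial markers (3 higher of 8; 54.3 to 62.9 and 62.5 to 80.5 RPKM) and stellate cell markers (1 higher of 9; 76.9 to 88.6 and 114 to 138 RPKM) had shares called higher close to or below that of all genes, and none lower. Of cholangiocyte markers 1 of 4 tested was lower, with sums of 32.1 to 49.8 and 28.8 to 48.8 RPKM. Neutrophil (1 of 2 tested lower), erythroid (1 of 4 lower) and pancreatic acinar markers (1 of 1 lower) summed to 1.5 to 4.99, 470 to 1874 and 3.58 to 8.77 RPKM in STZ, and to 3.43 to 10.9, 1256 to 1972 and 32.2 to 41.2 RPKM in Con. No marker gene was at 0 in all 18 libraries, but 3 of the 7 acinar genes were at 0 in all STZ livers. The part of these cell types in the changes of the transferases was not tested.

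The gene whose pattern was most like that of a member was found by Pearson's r of log2(RPKM + 1) over the 18 libraries, among 10795 genes outside the family. Gsta2 was closest to Ass1, the urea cycle enzyme argininosuccinate synthase (r = 0.973), and Gstt3 to Hrg, a plasma glycoprotein (r = 0.974). Gstp1 was closest to C6, a component of the terminal complement pathway (r = 0.918), whose mean was 107 RPKM in Con, 58.7 in AOS and 8.44 to 22.3 in the 4 groups given STZ. Gstm1 was closest to Nptn (0.956), Gstm2 to Golt1a (0.906), Gstm3 to Actr6 (0.849) and Gsta3 to Aldoc (0.954). Gsta4 was closest to Tomm70a (0.955), Gstt1 to Pdk1 (0.929) and Gstz1 to Aptx (0.966). Aptx lay near the filter of 1 RPKM, with group means of 1.13 to 1.68 RPKM. All these r values are the highest of many comparisons and are given as descriptions.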

How the data were processed

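The members, the gene lists and the tests were chosen with earlier results of these data known. RNA of 18 livers (3 libraries in each of 6 groups) was enriched for poly(A) transcripts and sequenced on an Illumina instrument. The authors deposited 1 RPKM value per gene symbol and library, and reads per library and strand were not derived from them. The methods name SOAPaligner, whereas the submitters' processing notes name Bowtie 0.12.2 and the build mm10. The SOAPaligner settings given there include the reporting of reads with repeated hits, but how such reads were counted per gene was not worked out here. The table held 19057 symbols (3 repeated, 26 that look like dates).

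Genes that reached 1 RPKM in 3 or more libraries were kept, 1 was added and log2 taken, so differences of low genes are understated. Linear models of limma 3.58.1 (R 4.3.3; moderated variances with an intensity trend, two-sided tests) were fitted to 12 libraries (Con, STZ, A10-FMT and Con-FMT; 10602 genes) for the comparisons of these groups, and to 18 libraries (10822 genes) for those with AOS and STZ+AOS. P-values were adjusted over all genes of a contrast (Benjamini-Hochberg), with calls under 0.05, and the procedure was tested on simulated data. Named genes were all members, the called genes of each list with at least a 2-fold change (at most 4 per direction), genes called in a contrast with STZ, and Nfe2l2, Nr1i3, Nr1i2, Gclc, Gclm, Nqo1 and Gsr, apart from an item that is not reported here. Fah, Mgst1, Gstp2 and Gstp3 were added after their values were seen, as was the choice of promoters shown. Gene positions and transcripts were those of GENCODE for GRCm38, and promoters those of RefSeq. Alternatives were median-ratio scaling, a pseudocount of 0.1, no filter, other groups in the model, a replicate block and leaving out each mouse. Leaving out each mouse for the lists was added after the data were seen.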

Additional observations from a re-analysis of the deposited data

How the results depend on the processing

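Of 253 alternative values of members called, 201 kept the direction and the call, 52 lost the call and 0 turned direction. Of 897 of members not called, 841 stayed so, 10 gained a call and 46 turned direction. Under median-ratio scaling the turned values were -0.086 for Gstz1 in STZ against Con, 0.018 for Gsta2 in Con-FMT against STZ, -0.059 for Gsta3 in Con-FMT against Con, 0.0054 for Gstz1 in A10-FMT against Con-FMT, and -0.046 for Gsta2 and -0.031 for Gstt3 in STZ+AOS against STZ. Leaving out 1 mouse gave ranges that crossed 0. In A10-FMT against STZ they were -0.018 to 0.28 for Gsta3, -0.044 to 0.30 for Gstm2, -0.12 to 0.26 for Gstm3 and -0.071 to 0.31 for Gstt1. In Con-FMT against STZ they were -0.27 to 0.24 for Gsta2, -0.23 to 0.063 for Gsta3, -0.045 to 0.36 for Gstp1 and -0.27 to 0.11 for Gstt1. In A10-FMT against Con-FMT they were -0.054 to 0.45 for Gsta2, -0.10 to 0.34 for Gstt3 and -0.061 to 0.017 for Gstz1. In AOS against Con they were -0.15 to 0.0085 for Gsta3. In STZ+AOS against STZ they were -0.16 to 0.13 for Gsta2, -0.31 to 0.045 for Gsta4, -0.019 to 0.35 for Gstm1, -0.18 to 0.46 for Gstm2, -0.28 to 0.27 for Gstp1, -0.35 to 0.17 for Gstt1, -0.50 to 0.67 for Gstt3 and -0.35 to 0.023 for Gstz1. In STZ+AOS against AOS they were -0.24 to 0.068 for Gsta3 and -0.47 to 0.049 for Gstt1. In the difference between the AOS effects they were -0.35 to 0.0198 for Gstm1, -0.49 to 0.15 for Gstm2 and -0.97 to 0.20 for Gstt3. The number of members called went from 0 to 1 in A10-FMT against STZ and from 0 to 2 in Con-FMT against STZ when 1 mouse was left out (1 and 2 without STZ mouse 3), was 2 to 5 in A10-FMT against Con and 2 to 4 in Con-FMT against Con, and 4 with no filter in A10-FMT against Con. A model of the compared groups alone gave 1 call in AOS against Con and 1 in STZ+AOS against AOS, from fewer libraries, and was not run for the difference between the AOS effects. With median-ratio scaling the lists changed to 2 lower other transferase genes (from 1), 6 higher recycling genes (from 11), 3 lower NRF2 targets (from 1), 11 higher regulators (from 17) and 1 lower tyrosine gene (from 0). Leaving out 1 mouse, an alternative for the lists chosen after seeing the data, gave 4 to 8 higher and 1 to 3 lower other transferase genes, 7 to 12 higher and 0 to 3 lower recycling genes, 0 to 1 lower synthesis genes and 0 to 1 lower NRF2 targets. Deviations of same-numbered libraries of different groups had r of -0.25 to 0.47 over 45 pairs (median 0.03, over 0.1 in 16). Differently numbered libraries had -0.53 to 0.45 over 90 pairs (median -0.01, over 0.1 in 16). These values cannot settle whether the numbers pair the mice, and the methods describe no pairing. A replicate block gave 7 members called for STZ against Con, 6 for STZ+AOS against AOS, 5 each for A10-FMT and Con-FMT against Con and 0 in the other comparisons. The causes of the other changes were not tested. The members lie far above the filter, so the limits are the 3 libraries per group, reads shared between similar genes, and the scale of RPKM, which shifted the comparisons with Con and AOS.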
